A study of Mus musculus with 8 samples.

Results

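The genes described here encode the machinery that brings proteins into mitochondria and builds the respiratory complexes. They comprise every Timm, Tomm and Ndufaf gene with a numbered name on the array, together with assembly factors, inner membrane chaperones and proteases given by name. The rule was a list of gene names and used no measured value. It selected 80 probes of 46 genes, out of 41174 probes that carry 27398 gene names. Sco2, which was 1 of the 21 individually listed names, is not among the gene names of this array.

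The tissue was the tibialis anterior, a fast leg muscle, and all mice were C57BL/6 males of 8 weeks. Prep1deltaSM mice (n = 4) had Prep1 ablated in their skeletal muscle. Prep1f/+ mice (n = 4), which are labelled as carrying a floxed Prep1 allele, were the comparison group. The second allele and the Cre driver of the Prep1deltaSM mice, and whether Prep1f/+ mice carry Cre, are not given in the sources used here. Prep1 is the protein of Pknox1, a homeodomain transcription factor that binds DNA as a partner of Pbx proteins. The question addressed is how muscle transcripts change when it is lost.

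Most mitochondrial proteins are encoded in the nucleus, made in the cytosol and threaded through the TOM complex of the outer membrane. TIM23 then passes precursors with a presequence towards the matrix, TIM22 inserts carrier proteins into the inner membrane, and the small TIM chaperones escort hydrophobic precursors across the space between. Once inside, subunits of the respiratory chain are joined by dedicated assembly factors that are not part of the finished complexes, while prohibitins and proteases guard their quality. Skeletal muscle has many mitochondria, and slow fibres usually have more of them than fast fibres.

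Each value below is a log2 signal minus the log2 of the 75th percentile of that array, and a difference is Prep1deltaSM minus Prep1f/+ with its standard error. The brightest probe stands for its gene, and levels are not compared between probes. Replicate numbers only name the mice within a group. Both genotypes were on each of the 4 slides, with 1 array apiece, and 23787 to 27123 of 43379 spots per array were well above background. Precision is limited by having 4 arrays per group.

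The labels were checked first. Pknox1 signal was -1.84, -2.08, -2.28 and -1.96 in Prep1deltaSM replicates 1 to 4, against -0.09, -0.31, -0.21 and -0.51 in Prep1f/+ replicates 1 to 4. The ranges were far apart, with a difference of -1.76 ± 0.13 (adjusted p = 0.0072 by limma), which became an adjusted p of 0.062 with slide as a block and a difference of -0.89 (adjusted p = 0.00177) with normexp correction and quantile normalization. The 12 markers of fast and general muscle fibre were well above background on all 8 arrays, and their median difference was 0.01, or 0.09 with quantile normalization. Markers of other cells that a whole muscle holds had mostly negative differences, none with an adjusted p under 0.05 by limma. All 8 tendon genes were lower (median -0.57), as were all 14 leukocyte genes tested (-0.46), 10 of 12 fibroblast genes (-0.38), 7 of 8 adipocyte genes (-0.95) and 6 of 7 satellite cell genes (-0.17), the last pair becoming 6 of 8 and 5 of 7 under quantile normalization. The medians were smaller with normexp correction and quantile normalization, at -0.41 for tendon, -0.22 for leukocyte, -0.27 for fibroblast, -0.32 for adipocyte and -0.07 for satellite cell genes. The adipocyte gene Lep and the satellite cell gene Myf5 were not well above background on any array, and the 9 endothelial genes had a median of -0.08.

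Of the 46 genes, 45 had a probe that was well above background on 4 or more arrays and were tested. Tomm20l was above background on 0 of 8 arrays. A further 3 probes were left out, 1 each of Lrpprc and Tomm70a (0 arrays) and 1 of Timm9 (2 arrays, both Prep1deltaSM); other probes of these genes were tested.

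None of the 45 genes passed an adjusted p of 0.05 by limma, where 0.00624% of all 16016 genes did (Pknox1 alone), and the smallest adjusted p among them was 0.202. At an unadjusted p under 0.05 there were 4, of which 2 were higher (Afg3l2 and Cox10) and 2 lower (Tomm6 and Timm13) in Prep1deltaSM muscle. They make up 8.89% of the list, against 15.9% of all genes, of which 5.54% were higher and 10.3% lower. In 3 genes (6.67%) the arrays of the groups did not overlap, 2 higher and 1 lower, against 10.5% of all genes (3.72% higher and 6.74% lower). Both shares lay below those of the whole array, but the first depended on the processing. It was 24.4% (11 genes), against 15.6% of all genes, with normexp correction and quantile normalization. With the authors' values it was 19.4% against 15.3%, but these cover 31 of the genes, some read from another probe. In no other setting was the share of the list above that of all genes. It was 13.3% against 15.1% with quantile normalization alone, and 6.67% against 14.5% with median centring. With slide as a block in limma, Timm13 missed the unadjusted threshold and Timm9 met it, which made 3 higher and 1 lower.

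By sign, 13 genes were higher and 32 lower, with a median difference of -0.08 that lay beside -0.07 for all genes. Lower values made up 71.1% of the list and 62.7% of all genes. This split depended on the scaling: with quantile normalization 19 genes were higher and 26 lower, which is 57.8% lower against 56.1% of all genes.

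The precision allows a bound on the size of the differences. The 95% confidence interval lay within 1.5-fold in either direction for 42 of 45 genes and within 2-fold for 44. Only the intervals of Cox10 (0.14 to 0.79), Cox17 (-0.71 to 0.20) and Timm8a2 (-1.58 to 0.59) reached beyond 1.5-fold. These bounds are for the brightest probe of each gene. In the fit over probes, intervals of 6 dimmer probes of 5 genes reached beyond 1.5-fold too, which were those of Ttc19 (0.14 to 0.93), Timm23 (0.07 to 0.91), Lrpprc (0.18 to 0.70), Ndufaf4 (0.13 to 0.65 and 0.04 to 0.60) and Timm9 (-0.15 to 0.67). The half-width of the interval had a median of 0.23, a lowest value of 0.18 and a highest value of 1.08, which belonged to Timm8a2.

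**Figure D1:**
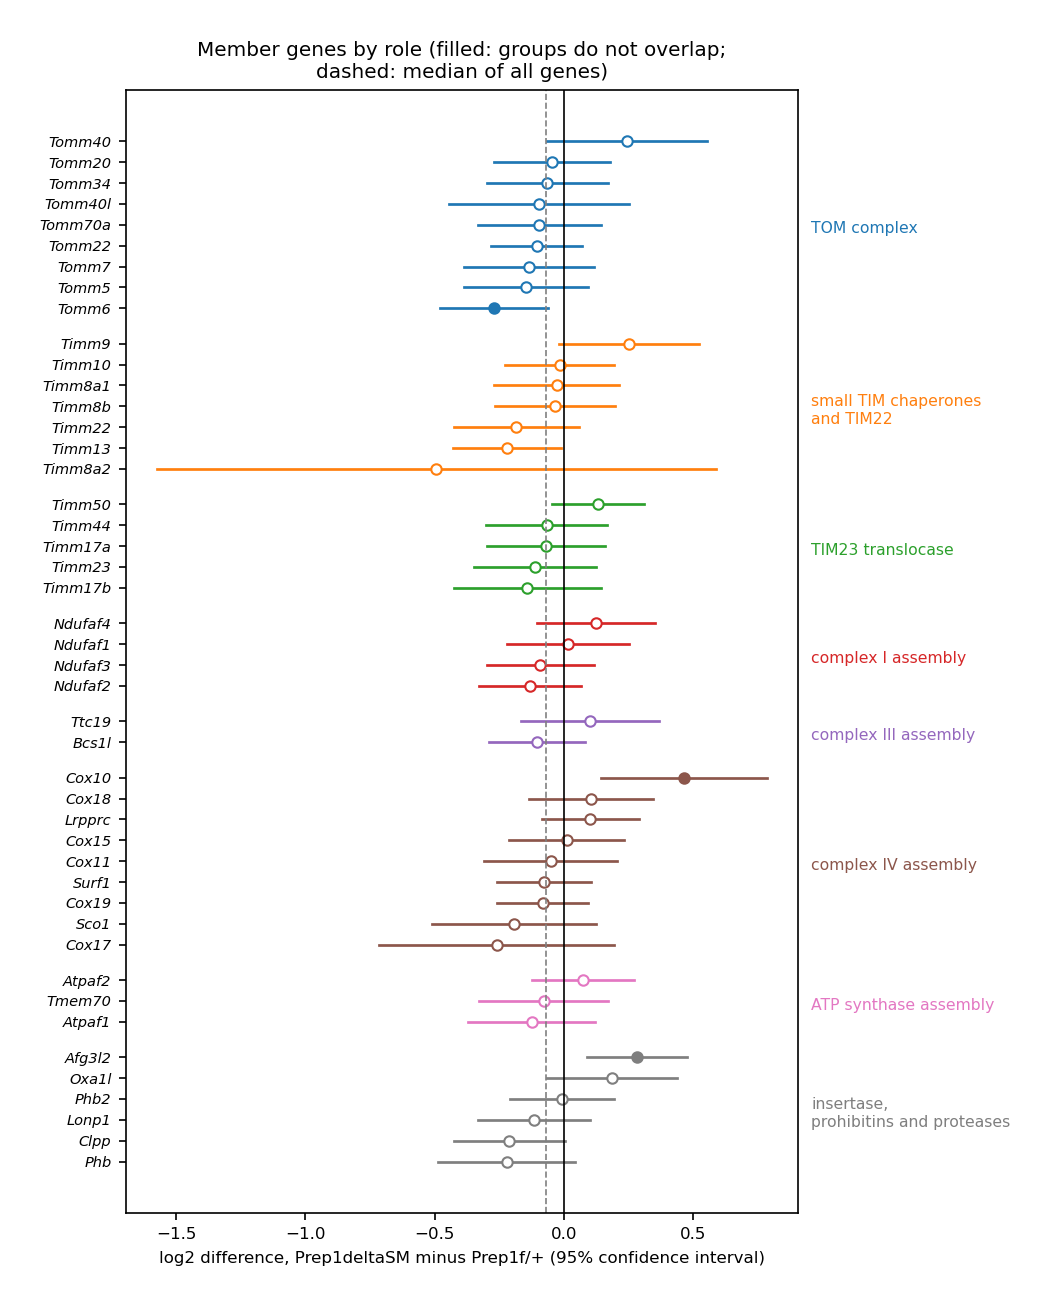
Log2 difference, Prep1deltaSM minus Prep1f/+, of each of the 45 tested genes, with its 95% confidence interval, in 8 groups by role. Filled points mark the 3 genes whose arrays did not overlap between groups, the solid line is 0 and the dashed line the median of all genes, -0.07. Most intervals cross 0, and other scalings turned the sign of Tomm20, Cox11, Timm8b, Timm8a1, Timm10 and Phb2 (quantile normalization), Timm44 (normexp and quantile normalization) and Cox15 (median centring).

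The TOM complex group, which also holds the cytosolic cochaperone Tomm34, showed 1 higher and 8 lower values among 9 tested genes (median difference -0.10). With quantile normalization 2 were higher and 7 lower, and Tomm20 turned to 0.03. Only Tomm6 passed an unadjusted p of 0.05. Tomm6 is one of the small subunits that steady the TOM channel. Its signal was 2.28, 2.36, 2.42 and 2.52 in Prep1deltaSM replicates 1 to 4, against 2.71, 2.80, 2.58 and 2.56 in Prep1f/+ replicates 1 to 4. The groups did not overlap, although Prep1deltaSM replicate 4 lay close to Prep1f/+ replicate 4. The difference of -0.27 ± 0.09 corresponds to 1.20-fold lower signal (unadjusted p = 0.018, adjusted p = 0.233 by limma), and it was negative within each of the 4 slides.

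Tomm40, the pore of the TOM complex, ran the other way from its neighbours. It had -1.06, -0.83, -0.88 and -0.91 in Prep1deltaSM muscles, against -0.85, -1.14, -1.48 and -1.20 in Prep1f/+ muscles. Prep1f/+ replicate 1 lay among the Prep1deltaSM values, and the difference was 0.25 ± 0.14 (adjusted p = 0.403 by limma). The receptors that first bind precursors had overlapping groups at their brightest probes, while other probes of Tomm20 and Tomm70a, given further on, went in other directions. Tomm20, which recognises presequences, had 4.07, 4.32, 4.04 and 4.17 in Prep1deltaSM muscles and 4.26, 4.22, 4.27 and 4.03 in Prep1f/+ muscles, a difference of -0.05 ± 0.10. Tomm70a, a receptor for carrier precursors, had 2.52, 2.74, 2.65 and 2.56 in Prep1deltaSM muscles and 2.94, 2.65, 2.57 and 2.69 in Prep1f/+ muscles, a difference of -0.10 ± 0.10. The ranges of both overlapped between the groups. Tomm22, the receptor that also organises the complex, had 3.71, 3.83, 3.75 and 3.75 in Prep1deltaSM muscles, against 3.92, 3.87, 3.76 and 3.91 in Prep1f/+ muscles. Its difference was -0.10 ± 0.08, and it had among the smallest spreads of the list. The small subunits Tomm5 and Tomm7 were at -0.15 and -0.13, the cytosolic cochaperone Tomm34 at -0.06 and the Tomm40 homologue Tomm40l at -0.09.

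The small TIM chaperones and TIM22 gave 1 higher and 6 lower values among 7 genes, with a median of -0.03, which became 4 higher and 3 lower with a median of 0.04 under quantile normalization, where Timm8b, Timm8a1 and Timm10 turned to 0.07, 0.04 and 0.05. Timm13 works with Timm8 as a chaperone of the intermembrane space. It had 5.82, 5.95, 5.99 and 6.11 in Prep1deltaSM muscles, against 6.25, 6.26, 6.08 and 6.16 in Prep1f/+ muscles. The ranges touched, since Prep1deltaSM replicate 4 exceeded Prep1f/+ replicate 3. Its difference was -0.22 ± 0.09, or 1.16-fold lower (unadjusted p = 0.0421, adjusted p = 0.298 by limma), with an unadjusted p of 0.0753 when slide was a block. Timm9, which forms a hexamer with Timm10, was the gene with the higher value. It had 1.65, 1.77, 1.62 and 1.85 in Prep1deltaSM muscles, against 1.75, 1.50, 1.38 and 1.26 in Prep1f/+ muscles, a difference of 0.25 ± 0.12 (adjusted p = 0.339 by limma). Its partner Timm10 was level, with 5.37, 5.45, 5.34 and 5.51 in Prep1deltaSM muscles and 5.57, 5.51, 5.37 and 5.29 in Prep1f/+ muscles, a difference of -0.02 ± 0.09. The difference between Timm9 and Timm10 was not tested.

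Timm22, the channel of the carrier translocase, had 3.02, 3.28, 3.04 and 3.11 in Prep1deltaSM muscles, against 3.28, 3.27, 3.13 and 3.51 in Prep1f/+ muscles. The groups overlapped and the difference was -0.18 ± 0.11 (adjusted p = 0.427 by limma). Timm8a1 and Timm8b were at -0.03 each. Timm8a2 had the widest spread of the list, with a pooled SD of 0.79 log2 units, and was well above background on 7 of 8 arrays. Its signal ran between -4.27 and -3.73 in Prep1deltaSM muscles and between -4.76 and -2.22 in Prep1f/+ muscles around a difference of -0.49 ± 0.47. It was -0.91 without Prep1f/+ replicate 3 but -0.06 when Prep1f/+ replicate 4 was left out, and -0.11 with normexp correction and quantile normalization.

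The TIM23 translocase had 1 higher and 4 lower values among 5 genes (median -0.07), none with an unadjusted p under 0.05. With quantile normalization the median was -0.0005 and 1 gene had an unadjusted p under 0.05 by limma. Timm50, the receptor that hands presequences to the channel, was the higher one. It had 2.72, 2.81, 2.87 and 2.76 in Prep1deltaSM muscles, against 2.64, 2.76, 2.58 and 2.65 in Prep1f/+ muscles, a difference of 0.13 ± 0.08 (adjusted p = 0.432 by limma). The channel protein Timm23 had 6.23, 6.54, 6.38 and 6.51 in Prep1deltaSM muscles and 6.64, 6.48, 6.37 and 6.61 in Prep1f/+ muscles, a difference of -0.11 ± 0.10. Timm44, which tethers the import motor to the channel, had 4.59, 4.79, 4.66 and 4.74 in Prep1deltaSM muscles and 4.64, 4.93, 4.61 and 4.87 in Prep1f/+ muscles. Its difference was -0.07 ± 0.10, which became 0.01 with normexp correction and quantile normalization. The paired channel subunits Timm17a and Timm17b were at -0.07 and -0.14.

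Among assembly factors of complex I, the entry point of the respiratory chain, 2 genes were higher and 2 lower (median -0.04, and 0.03 with quantile normalization). Ndufaf2, which binds a late assembly intermediate, had 1.99, 2.19, 2.14 and 2.27 in Prep1deltaSM muscles, against 2.34, 2.30, 2.25 and 2.22 in Prep1f/+ muscles. The difference was -0.13 ± 0.09 (adjusted p = 0.476 by limma), negative in all 4 slides. Ndufaf1, which is needed for the membrane arm, had 3.36, 3.71, 3.54 and 3.57 in Prep1deltaSM muscles and 3.49, 3.57, 3.39 and 3.66 in Prep1f/+ muscles, a difference of 0.02 ± 0.10. Ndufaf3 and Ndufaf4, which act together early in assembly, were at -0.09 and 0.13.

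Complex III has 2 genes in the list, and they lay on either side of 0. Bcs1l, which inserts the Rieske iron-sulphur protein, had 2.41, 2.57, 2.51 and 2.63 in Prep1deltaSM muscles and 2.67, 2.67, 2.55 and 2.65 in Prep1f/+ muscles, a difference of -0.10 ± 0.08. Ttc19, which helps clear Rieske fragments, was at 0.10 ± 0.12.

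Complex IV, or cytochrome c oxidase, has 9 tested assembly genes, of which 4 were higher and 5 lower (median -0.05), and 5 higher and 4 lower under quantile normalization, where Cox11 turned to 0.01. Cox10, which makes haem O from haem B as the first step towards the haem A of the oxidase, had the largest positive difference of the 45 genes as read here. That order changed with normexp correction and quantile normalization, where Cox10 was at 0.23 and Timm9 at 0.25. With the authors' values Cox10 was at 0.47 and Ttc19 at 0.54, but Ttc19 was there read from a dimmer probe. The brightest probe of Ttc19 was at 0.15 with quantile normalization. The Cox10 signal was -1.13, -0.88, -1.29 and -1.11 in Prep1deltaSM replicates 1 to 4, against -1.35, -1.42, -1.62 and -1.89 in Prep1f/+ replicates 1 to 4. The groups did not overlap, with the highest Prep1f/+ mouse just under the lowest Prep1deltaSM mouse. The difference of 0.47 ± 0.14 corresponds to 1.38-fold (unadjusted p = 0.00992, adjusted p = 0.208 by limma) and was positive within each slide, between 0.23 and 0.74. Cox15, which carries out the next step to haem A, was at 0.01, and turned to -0.0046 with median centring of the arrays. Surf1, which is mutated in human Leigh syndrome and helps mature the catalytic core, had 2.74, 2.87, 2.83 and 2.79 in Prep1deltaSM muscles and 2.94, 2.91, 2.92 and 2.76 in Prep1f/+ muscles, a difference of -0.08 ± 0.08.

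The copper branch of complex IV assembly starts with Cox17, the chaperone that hands copper to Sco1 and Cox11. It had 8.50, 8.45, 8.37 and 8.80 in Prep1deltaSM muscles, against 9.01, 8.65, 8.30 and 9.20 in Prep1f/+ muscles. The Prep1f/+ values were more spread, with an SD of 0.40 against 0.19 in Prep1deltaSM, and the difference was -0.26 ± 0.20 (adjusted p = 0.54 by limma). Without Prep1f/+ replicates 1 and 4 the difference was 0.06. These had the highest Prep1f/+ values at this probe, so leaving them out can only raise it. The other Cox17 probe, listed under another transcript, was at -0.14 ± 0.08 with no overlap (adjusted p = 0.425 over all probes by limma). Its SD was 0.03 in Prep1f/+ and 0.11 in Prep1deltaSM muscles. Sco1, Cox11 and Cox19 were at -0.19, -0.05 and -0.08, and Cox18, which inserts the subunit that carries a copper centre, was at 0.10. Lrpprc, which stabilises mitochondrial messenger RNAs, had 4.28, 4.49, 4.38 and 4.45 in Prep1deltaSM muscles and 4.31, 4.38, 4.25 and 4.24 in Prep1f/+ muscles, a difference of 0.10 ± 0.08.

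For ATP synthase, 1 of 3 assembly genes was higher and 2 lower (median -0.08, and -0.01 with quantile normalization). Atpaf1, a chaperone of the F1 beta subunit, had 4.53, 4.82, 4.67 and 4.66 in Prep1deltaSM muscles and 4.94, 4.85, 4.57 and 4.82 in Prep1f/+ muscles, a difference of -0.12 ± 0.11. Tmem70, which is needed to build the membrane rotor, had 3.72, 4.02, 3.97 and 3.82 in Prep1deltaSM muscles and 3.89, 3.92, 3.84 and 4.18 in Prep1f/+ muscles, a difference of -0.08 ± 0.11. Atpaf2, the chaperone of the alpha subunit, was at 0.07.

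The inner membrane insertase, the prohibitins and the proteases gave 2 higher and 4 lower values among 6 genes (median -0.06), and 3 of each under quantile normalization, where Phb2 turned to 0.08. Afg3l2 is a subunit of the m-AAA protease, which degrades misfolded inner membrane proteins and matures others. It had the smallest unadjusted p of the list. Its signal was 0.58, 0.74, 0.64 and 0.67 in Prep1deltaSM replicates 1 to 4, against 0.34, 0.43, 0.25 and 0.48 in Prep1f/+ replicates 1 to 4. The lowest Prep1deltaSM mouse exceeded the highest Prep1f/+ mouse, and the difference was 0.28 ± 0.08, or 1.22-fold (unadjusted p = 0.00896, adjusted p = 0.202 by limma). Clpp, the proteolytic chamber of a matrix protease, had 4.26, 4.41, 4.22 and 4.48 in Prep1deltaSM muscles, against 4.57, 4.68, 4.47 and 4.50 in Prep1f/+ muscles. Only Prep1deltaSM replicate 4 reached into the Prep1f/+ range, and the difference was -0.21 ± 0.09 (unadjusted p = 0.0528, adjusted p = 0.32 by limma).

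Phb and Phb2 form the prohibitin ring that holds the m-AAA protease. Phb had 5.47, 5.54, 5.72 and 5.82 in Prep1deltaSM muscles, against 5.94, 6.02, 5.66 and 5.82 in Prep1f/+ muscles, a difference of -0.22 ± 0.12 (adjusted p = 0.386 by limma). Phb2 had 4.03, 4.30, 4.13 and 4.18 in Prep1deltaSM muscles and 4.26, 4.18, 4.07 and 4.15 in Prep1f/+ muscles, a difference of -0.01 ± 0.09. Both overlapped between the groups. Lonp1, the main soluble protease of the matrix, had 4.37, 4.60, 4.38 and 4.61 in Prep1deltaSM muscles and 4.67, 4.69, 4.53 and 4.54 in Prep1f/+ muscles, a difference of -0.11 ± 0.09. Oxa1l, which inserts subunits made inside mitochondria, had 1.92, 2.04, 1.92 and 1.72 in Prep1deltaSM muscles and 1.92, 1.65, 1.55 and 1.73 in Prep1f/+ muscles, a difference of 0.19 ± 0.11 (adjusted p = 0.428 by limma).

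**Figure D2:**
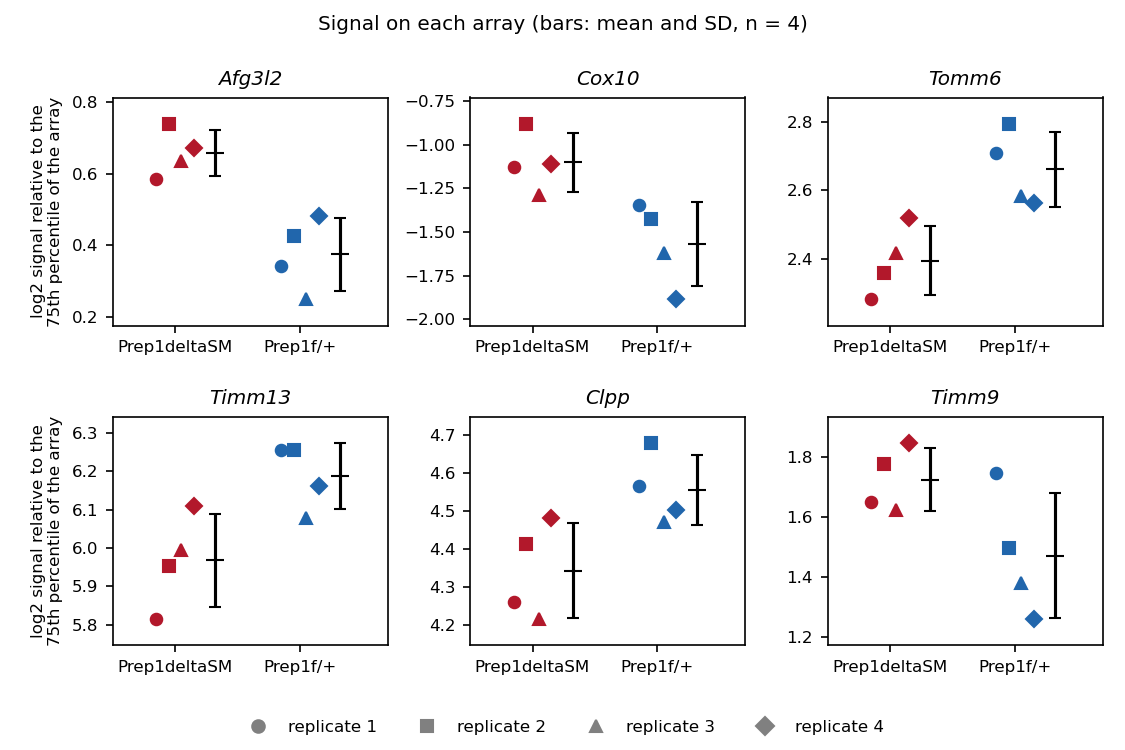
Log2 signal relative to the 75th percentile of the array for the 6 genes with the smallest unadjusted p, with a symbol per mouse and, beside it, the mean and SD (n = 4). Afg3l2 and Cox10 were higher and Tomm6 lower in Prep1deltaSM with no overlap, while Timm13, Clpp and Timm9 overlapped; each panel has its own axis, which does not start at 0.

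The list as a whole was lowest in 1 Prep1deltaSM mouse. After each gene was centred on its mean over the 8 arrays, the median of the list was -0.16, 0.07, -0.07 and 0.03 in Prep1deltaSM replicates 1 to 4, against 0.10, 0.06, -0.08 and -0.01 in Prep1f/+ replicates 1 to 4. Prep1deltaSM replicate 1 was thus the lowest mouse, and it held the lowest value of 25 of the 45 genes (55.6%), against 18.0% of all genes. In that mouse the medians of all 8 role groups lay between -0.20 and -0.10, where the median of all genes was -0.06. The highest value of a gene was in Prep1deltaSM replicate 2 for 14 genes, in Prep1f/+ replicate 2 for 12 and in Prep1f/+ replicate 1 for 11. Highest values were not counted over all genes. Without Prep1deltaSM replicate 1, the median difference was -0.03, against -0.06 for all genes. In that setting 2 genes (4.44%) had an unadjusted p under 0.05 by limma, against 11.5% of all genes. The median SD within a group was 0.12 in Prep1deltaSM and 0.13 in Prep1f/+.

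**Figure D3:**
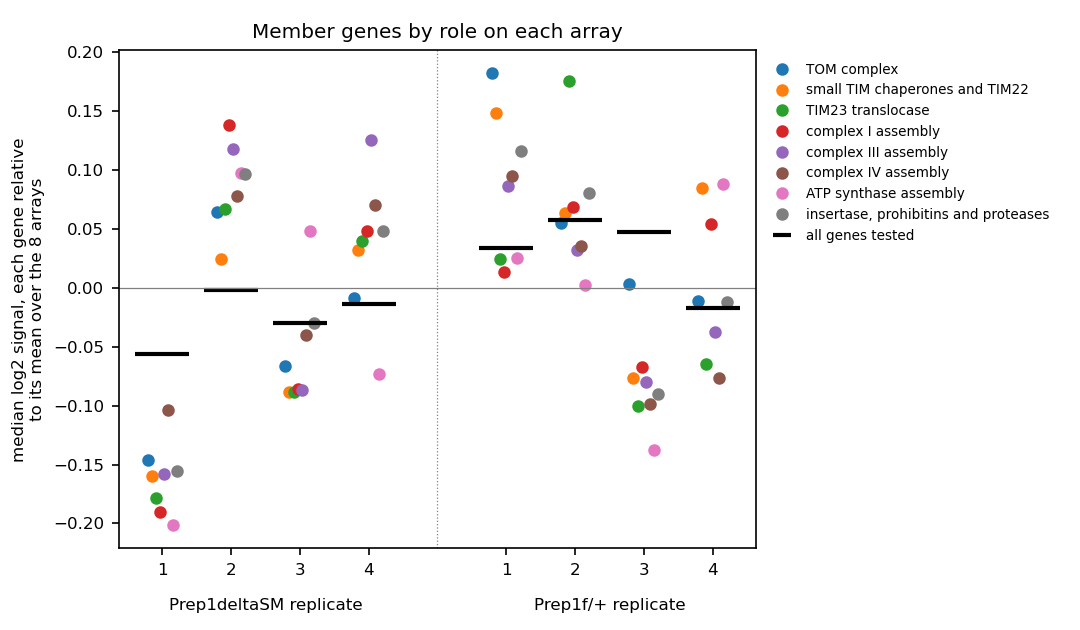
Median log2 signal of each role group on each array, every gene taken relative to its mean over the 8 arrays, with black bars for the median of all genes tested. The 8 role groups are all below 0 in Prep1deltaSM replicate 1, between -0.20 and -0.10, and the order of the mice does not follow the genotype.

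Slow fibre genes are set beside these values because slow fibres are rich in mitochondria. All 12 genes of the slow fibre list were lower in Prep1deltaSM muscle, with a median difference of -0.48, where 62.7% of all genes were lower. Of these, 2 had an unadjusted p under 0.05, as had 15.9% of all genes, and the lowest adjusted p was 0.263 by limma. The list includes Myh2, the IIA myosin of fast fibres, and Actn2, which is not confined to slow fibres. With quantile normalization 10 of 12 were lower (-0.44), and with normexp correction and quantile normalization 9 of 12 (-0.32). The mean centred signal of the slow fibre list lay between -0.69 and 0.01 in Prep1deltaSM muscles and between -0.34 and 0.91 in Prep1f/+ muscles, so the groups overlapped. It was 0.91, -0.02, 0.81 and -0.34 in Prep1f/+ replicates 1 to 4, and thus high in replicates 1 and 3 only. The adipocyte list lay between -1.61 and 0.80 in Prep1deltaSM muscles and between -0.48 and 0.96 in Prep1f/+ muscles, and the tendon list between -0.99 and 0.25 in Prep1deltaSM muscles and between -0.07 and 0.52 in Prep1f/+ muscles. The part of these cells in the values above was not tested, and in whole muscle fewer cells of a type and less RNA per cell cannot be told apart.

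Several genes were measured by more than 1 probe, and the probes did not always go the same way. Of 22 such genes, 11 had probes on both sides of 0. Over all 76 tested probes 34 were higher and 42 lower. No probe passed an adjusted p of 0.05 by limma over all 24488 probes, where 0.00408% did. An unadjusted p under 0.05 was met by 10 probes (13.2%), 7 higher and 3 lower, against 17.8% of all probes (9.66% higher and 8.09% lower), and 10 probes (13.2%) did not overlap between groups, against 11.8% of all probes.

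Timm13, with the fourth smallest p of the list, shows a pair of probes that differed little, and these share most of their bases. The first 30 bases of each 60-base probe are given on the minus strand of mm9, with capitals for bases that lie within both probes.
Timm13 probe at chr10:80362839-80362898: ctgtgcCTCGGGACACCGTGCTTATGGTCT
Timm13 probe at chr10:80362833-80362892: CTCGGGACACCGTGCTTATGGTCTGAACTG
The probes are offset by 6 bases and overlap by 54, of which 52 have the same letter, and gave -0.22 ± 0.09 and -0.22 ± 0.11. They cover nearly the same site. Cox18 has a like pair that overlaps by 55 bases, at 0.10 and 0.07. Afg3l2 and Timm9 each had probes at separate sites with like differences, 0.28 ± 0.09 and 0.28 ± 0.13 for Afg3l2 and 0.25 ± 0.12 and 0.26 ± 0.18 for Timm9. The mice behind the Timm9 values were not alike. Prep1f/+ replicate 1 was the highest Prep1f/+ mouse at the first Timm9 probe (1.75) and the lowest at the other (0.52).

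Tomm20 shows probes of a gene that part ways. Its 3 probes lie on the minus strand of chromosome 8 in mm9, share no bases, and are listed under the same transcript; the first 30 bases of each are shown in lower case because no stretch is shared.
Tomm20 probe at chr8:129456633-129456692: tggtgccagacaaatccattcttctcacgt
Tomm20 probe at chr8:129458091-129458150: tccagctggtgattatttcagaataaccag
Tomm20 probe at chr8:129461068-129463816: tcttccttgaagagatacagcttggtgaag
The first had 1.60, 1.68, 1.65 and 1.71 in Prep1deltaSM muscles, against 1.85, 1.91, 1.84 and 1.84 in Prep1f/+ muscles, with no overlap and a difference of -0.20 ± 0.07 (unadjusted p = 0.026 and adjusted p = 0.221 over all probes by limma). In the second the groups were apart in the other direction by less than the second decimal, at 0.10 ± 0.07, and the third, the brightest, was at -0.05 ± 0.10. The place of these probes in exons or untranslated regions was not analysed here. The probes of Tomm20 thus give no single direction for the gene.

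For Ndufaf4, Lrpprc and Ttc19 every tested probe was higher, but by different amounts. Ndufaf4 had 0.13, 0.39 and 0.32 at its 3 probes on chromosome 4. The middle value came from 0.87, 0.89, 0.85 and 0.84 in Prep1deltaSM muscles, against 0.43, 0.67, 0.61 and 0.18 in Prep1f/+ muscles, with no overlap (unadjusted p = 0.00866, adjusted p = 0.156 over all probes by limma). Lrpprc had 0.10 at its brightest probe and 0.44 ± 0.11 at the other, which had -1.07, -0.85, -1.08 and -1.02 in Prep1deltaSM muscles, against -1.56, -1.26, -1.64 and -1.31 in Prep1f/+ muscles. The groups were apart, with the smallest p of any probe in the list (0.00435, adjusted p = 0.129 by limma). Ttc19 had 0.10, 0.01 and 0.54, the last from a probe listed under another transcript that had -1.03, -0.70, -1.02 and -0.79 in Prep1deltaSM muscles, against -1.85, -1.21, -1.11 and -1.53 in Prep1f/+ muscles. It too did not overlap. Timm23 had -0.11 at its brightest probe and 0.49 ± 0.18 at a probe listed under another transcript and placed further upstream (unadjusted p = 0.028, adjusted p = 0.228 over all probes by limma). That probe had -2.13, -1.85, -2.16 and -1.99 in Prep1deltaSM muscles, against -3.03, -2.50, -2.11 and -2.44 in Prep1f/+ muscles, and Prep1f/+ replicate 3 lay among the Prep1deltaSM values.

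Signs also differed between probes of the remaining 9 genes, with no unadjusted p under 0.05. In this and the next sentence the brightest probe is given first. Values were -0.14, -0.16, 0.13 and 0.19 for Timm17b, -0.10, 0.22 and 0.17 for Tomm70a, -0.18 and 0.05 for Timm22, -0.06 and 0.16 for Tomm34, and -0.07 and 0.06 for Timm17a. They were 0.19, -0.02 and 0.20 for Oxa1l, -0.19 and 0.02 for Sco1, -0.12, 0.00 and 0.03 for Atpaf1, and 0.07 and -0.03 for Atpaf2. Averaging the probes of a gene turned Timm23 to 0.19, Tomm70a to 0.10, Tomm34 to 0.05 and Timm17b to 0.0048.

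**Figure D4:**
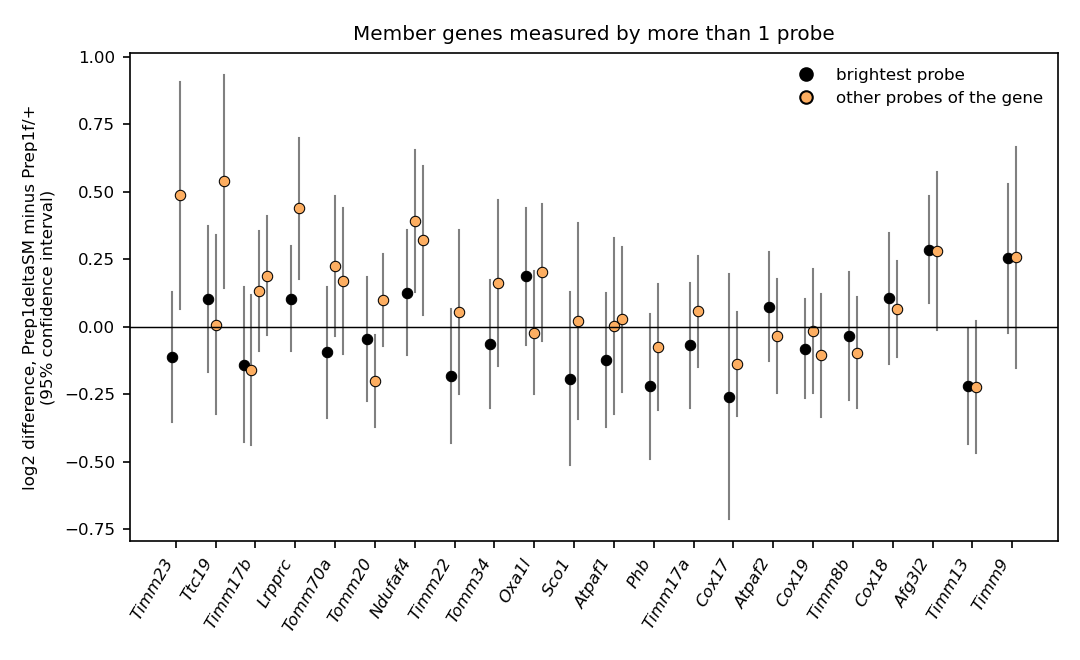
Log2 difference, Prep1deltaSM minus Prep1f/+, with its 95% confidence interval for every tested probe of the 22 genes with more than 1 probe, the brightest probe in black. Afg3l2, Timm9 and Timm13 at the right have probes with like differences, and Timm23 and Ttc19 at the left have the widest gaps.

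The sign of a probe's difference went with its brightness. Split at the median signal of the tested probes of these genes, 28 of the 38 dimmer probes were higher in Prep1deltaSM (median 0.10), against 6 of the 38 brighter probes (median -0.09). With quantile normalization the medians were 0.15 for dimmer and -0.02 for brighter probes, while those of all probes of the array were 0.01 and -0.0041. At the same split 49.1% of the 20521 dimmer probes of the whole array and 29.0% of the 3967 brighter ones were higher. Within genes, the brightest probe had a lower difference than the dimmest in 16 of 22 genes of the list (72.7%) and in 71.1% of 5776 genes of the array. Position went the same way. The most downstream probe had a lower difference than the most upstream in 14 of 22 genes (63.6%) and in 67.3% of the 5776. The parts of brightness and position in these values were not tested.

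**Figure D5:**
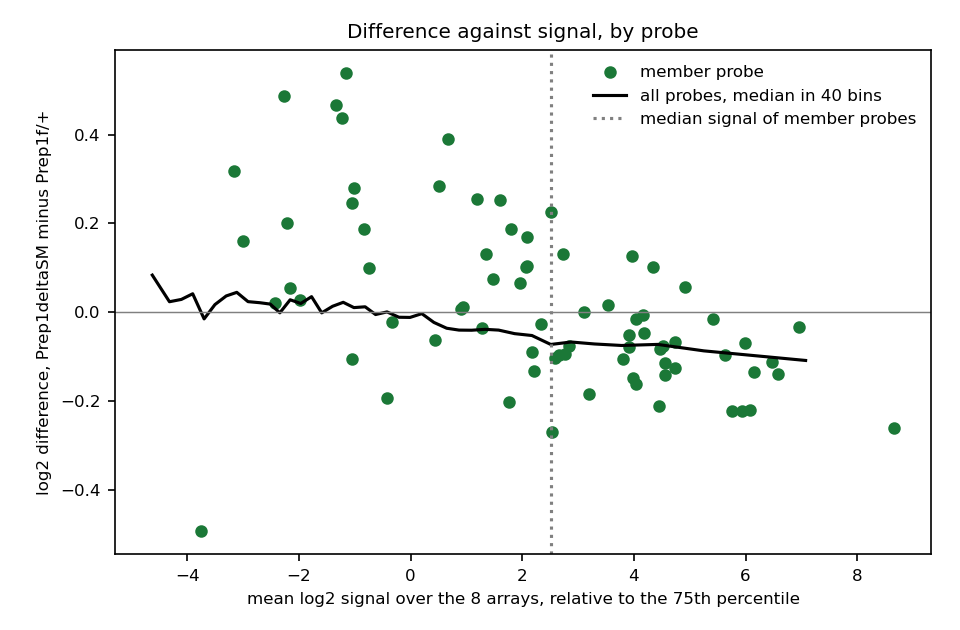
Log2 difference, Prep1deltaSM minus Prep1f/+, against the mean log2 signal over the 8 arrays for each of the 76 tested probes (points), with the median of all probes in bins of signal (line) and the median signal of the list (dotted). Dimmer probes lie mostly above 0 and brighter probes mostly below, and the line for all probes runs downwards under this scaling, with medians of -0.01 for dimmer and -0.08 for brighter probes of the array.

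The genes of import and assembly outside the list, 52 in all and chosen by name, gave 21 higher and 31 lower values with a median of -0.03, which turned to 31 higher and 21 lower with a median of 0.02 under quantile normalization. None passed an adjusted p of 0.05 by limma. At an unadjusted p under 0.05 there were 3 higher and 5 lower, 15.4% together, against 15.9% of all genes. The arrays did not overlap for 10 of them (19.2%), against 10.5% of all genes. Parl, a rhomboid protease of the inner membrane, had the smallest p of these, with 0.84, 0.91, 0.94 and 0.71 in Prep1deltaSM muscles, against 0.41, 0.40, 0.27 and 0.45 in Prep1f/+ muscles. The groups were well apart, at 0.47 ± 0.09 (unadjusted p = 0.000539, adjusted p = 0.121 by limma). Oma1, a stress-activated inner membrane protease, had -0.60, -0.44, -0.37 and -0.57 in Prep1deltaSM muscles, against -0.74, -0.76, -1.0 and -0.92 in Prep1f/+ muscles. It was at 0.36 ± 0.10, and Pmpca, a subunit of the peptidase that removes presequences, at 0.27 ± 0.09. Lower values were found for Pam16 and Grpel1 of the import motor, at -0.24 ± 0.08 and -0.25 ± 0.08, and for the complex IV assembly factor Ccdc56, at -0.25 ± 0.09. All 5 of these were apart between groups, with adjusted p-values of 0.183 for Oma1 and 0.245 for Ccdc56 by limma.

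The genes of the list lie on 19 chromosomes, and 4 are on chromosome 17, which also holds Pknox1. In mm9, Tomm6 is the nearest at 16.1 Mb from the Pknox1 probe, followed by Lonp1 at 25.0 Mb, Clpp at 25.4 Mb and Lrpprc at 53.4 Mb. These 4 had differences of -0.27, -0.11, -0.21 and 0.10, and any part of the chromosome around the targeted gene in them was not tested.

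Promoters of the genes were searched for short motifs of factors known for nuclear genes of mitochondria and for Prep1 itself. RefSeq windows of assembly GRCm38.p6, 300 bases from 250 before to 50 after the annotated start, were at hand for 40 of the 46 genes, and both strands were read. A gene was counted when any of its windows held the motif. CCGGAAG, the core bound by ETS factors such as GABP, was present in 15 of 40 genes (37.5%), against 9.93% of 27025 genes and 12.9% of protein-coding ones. The NRF1 core GCATGCGC was present in 3 (7.5%), against 3.05% of genes and 3.94% of protein-coding ones. The YY1 letters AAGATGGC occurred in 4 (10%), against 3.19% and 3.57%. TCAAGGTCA, bound by oestrogen-related receptors, occurred in 1 (2.5%), against 0.466% and 0.377%. TGATTGAC, bound by Prep1 with Pbx partners, occurred in 1 gene (2.5%), against 0.892% of genes and 0.92% of protein-coding ones. These windows are shown for the single match of the Prep1 letters, for Cox10 and Timm13 as genes with an unadjusted p under 0.05, and for Ndufaf4 as a gene with the NRF1 letters on both strands, with the motif in capitals.
Atpaf2, TGATTGAC, chr11:60417081-60417110, minus strand: gtttatgatgcTGATTGACgggggcgggag
Cox10, CCGGAAG, chr11:64079481-64079510, minus strand: agcgctgggagCCGGAAGtgacaagaggaa
Timm13, GCATGCGC, chr10:80901143-80901172, minus strand: ttatattgtacGCATGCGCagcggggaggt
Ndufaf4, GCATGCGC, chr4:24897961-24897990, plus strand: cagatgtctgcGCATGCGCctgtgcggaag
Atpaf2, with the Prep1 letters 65 bases before its start, had 1.38, 1.60, 1.57 and 1.46 in Prep1deltaSM muscles and 1.49, 1.42, 1.33 and 1.48 in Prep1f/+ muscles, a difference of 0.07 ± 0.09 (adjusted p = 0.69 by limma). A match of letters is a description of these windows and not a binding site.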

How the data were processed

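RNA of 8 tibialis anterior muscles was labelled with Cy3 and hybridised to single-colour Agilent arrays, 1 per mouse. The deposited intensity per spot, gProcessedSignal, comes from Feature Extraction 10.5.1.1 (protocol GE1_107_Sep09) per the file headers. The submitters' processing notes name version 9.1, and which applies was not settled. The authors' table of 32812 processed intensity values was an alternative, used for the 26248 rows that lay within 0.1 log2 of quantile-normalized scanner values. A gene was there read from the brightest of its probes with such a row, which need not be its brightest probe.

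Intensity was put on the log2 scale and centred on the 75th percentile of each array. Non-uniform spots were set missing, and replicate spots were averaged; none was saturated. The 24488 of 41174 probes well above background on 4 or more arrays were kept, and 16016 genes were each read from the brightest probe. The genotypes were tested with limma 3.58.1 (lmFit, eBayes; R 4.3.3), adjusting p over all genes by Benjamini-Hochberg. On data simulated for 16016 genes with 200 changed, recovery was 43.3% at a 1.5-fold change, 77.6% at 2-fold and 84.8% at 3-fold, and 8 calls were false. The noise added was independent between genes. The changed genes were drawn from all genes tested. Recovery depends on how many genes change, so these percentages are not estimates for the genes of the list.

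The genes and lists were chosen with earlier results of these data known. Array values are given for the 12 genes with the smallest p and for a set of genes chosen by role, some single probes with an unadjusted p under 0.05, and the 2 other pathway genes with the smallest p; of 4 further pathway genes the differences are given. Marker lists were of muscle fibre, slow fibre, fibroblast, tendon, leukocyte, adipocyte, endothelial and satellite cells. The 21 alternative settings covered background correction, normalization, filters, probe rules, slide as a block, the authors' values, the variance model, array weights and arrays left out. Positions of probes are those of the files, in mm9. Mice are not paired across groups in the labels.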

Additional observations from a re-analysis of the deposited data

Results flagged for a closer look

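Cox18 in Prep1f/+ muscle had 1 mouse apart from the others: replicate 4 was at 1.81 and the other Prep1f/+ mice between 2.09 and 2.14, a gap of 0.851 of the range. This was 1 of 92 groups of 4 values looked at, where about 4.6 would meet the same criterion by chance.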

How the results depend on the processing

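In none of the 21 alternative settings did a gene of the list pass an adjusted p of 0.05 by limma, and the lowest was 0.115 (Afg3l2, with normexp correction and quantile normalization). The number with an unadjusted p under 0.05, which was 4 as reported, was 11 with normexp and quantile normalization, 7 with array weights, 7 without Prep1f/+ replicates 1 and 4, and between 2 and 7 with each array left out in turn; with every probe as its own row it was 10 probes of 9 genes. The 11 of the normexp setting are 24.4% of the list, against 15.6% of all genes in that setting. The other counts named were not above the share of all genes. The 7 with array weights are 15.6% of the list, against 21.3% of all genes. The 7 without Prep1f/+ replicates 1 and 4 are 15.6%, against 16.8%. The 10 probes are 13.2% of the tested probes of the list, against 17.8% of all probes. With each array left out in turn, the share of the list was never above that of all genes. Genes past the adjusted threshold over the whole array, 1 as reported, numbered 26 with normexp and quantile normalization, 25 with array weights, 20 with a trended and robust fit, 0 with slide as a block, 0 without Prep1f/+ replicates 1 and 4, and 0 to 5 with each array left out. The median difference of the list, -0.0761 as reported, was -0.0077 with normexp and quantile normalization, -0.0083 with the authors' values, -0.0114 with quantile normalization and between -0.1089 and -0.0302 with each array left out. Pknox1 missed the threshold with slide as a block (-1.76, adjusted p = 0.062) and without Prep1f/+ replicates 1 and 4 (-1.78, adjusted p = 0.0605). It was -0.8938 (adjusted p = 0.00177) with normexp and quantile normalization. With each array left out it ranged from -1.84 to -1.68 and missed the threshold without Prep1deltaSM replicate 2, Prep1f/+ replicate 2 or Prep1f/+ replicate 3 (adjusted p from 0.0641 to 0.0738). The sign was the same in every setting for 27 genes and turned in at least 1 for 18, and the cause was not tested. With normexp and quantile normalization the turned values were 0.0084 for Timm44, 0.024 for Tomm20, 0.0605 for Cox11, 0.0797 for Timm8b, 0.0522 for Timm8a1, 0.0697 for Timm10 and 0.0896 for Phb2, and 55.6% of the list was lower, against 56.5% of all genes. With quantile normalization alone they were 0.0326 for Tomm20, 0.0107 for Cox11, 0.0722 for Timm8b, 0.0376 for Timm8a1, 0.0542 for Timm10 and 0.0815 for Phb2. With the authors' values, which cover 31 of the genes, they were 0.0156 for Cox11, 0.0709 for Timm8b, 0.0383 for Timm8a1, 0.0564 for Timm10 and 0.0725 for Phb2. Atpaf1 at 0.0651 and Cox19 at 0.0573 were also positive there and are counted among the 18 genes. Both have more than 1 tested probe, and in that setting a gene need not be read from its brightest probe. Their brightest probes had negative differences with quantile normalization alone. The positive values may thus belong to other probes than those reported. Cox15 was at -0.0046 with median centring and -0.028 with array weights. With the mean of the probes of a gene, Timm17b was at 0.0048, Timm23 at 0.19, Tomm70a at 0.10 and Tomm34 at 0.0492. Without Prep1f/+ replicates 1 and 4, Cox17 was at 0.0567, Timm8a2 at 0.34, Tomm70a at 0.007, Cox11 at 0.0462, Timm8a1 at 0.0827 and Phb2 at 0.0319. For all of these but Phb2, those arrays held the highest Prep1f/+ values, so leaving them out can only raise the difference. With each array left out, ranges that crossed 0 were -0.135 to 0.0044 for Cox11, -0.0993 to 0.0138 for Timm8b, -0.0542 to 0.0375 for Phb2, -0.0387 to 0.0786 for Ndufaf1, -0.0452 to 0.0681 for Cox15, -0.108 to 0.022 for Timm8a1, -0.0637 to 0.0317 for Timm10 and -0.191 to 0.0136 for Tomm40l. No paired analysis was possible because the labels give the mice no numbers shared between groups, and slide, which held 1 array of each group, was the block that could be used. Signal near background limits Timm8a2.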
